A study of Mus musculus with 6 samples.

Results

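Glycogen is the branched glucose polymer that cells build from UDP-glucose and take apart as glucose 1-phosphate. Glycogenin primes the chain, glycogen synthase extends it, the branching enzyme adds the side chains, and glycogen phosphorylase shortens it again, while laforin and malin keep the polymer soluble. In mouse memory CD8 T cells, glycogen turnover is reported to feed the pentose phosphate pathway; the genes are described here in CD4+ T cells, the helper lineage. The 9 genes described are Gyg, Ugp2, Gys1, Gbe1, Pygl, Pygb, Stbd1, Epm2a and Nhlrc1, found by symbol among 55291 distinct symbols of the table, and all 9 passed the filter of a mean of at least 10.

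The itaconate libraries came from splenic CD4+ T cells of wild-type C57BL/6 mice kept for 48 h in 5 mM itaconate, a dicarboxylate made by activated macrophages from the TCA cycle intermediate aconitate. The NaCl libraries came from the same kind of cells kept for 48 h in 5 mM NaCl. Cells of both groups were from naive animals, carried the division dye CFSE, and were stimulated with antibodies to CD3 and CD28 and with 200 U of IL-2. There were 3 libraries per group, and the labels do not say that they came from separate mice or cultures, so every error given here measures only the spread between these libraries, which may be technical. The code NAC in the table was taken to mean NaCl, since NaCl is the sole control in the labels; no source used here spells the code out. Each itaconate library held 20074299 to 22755248 estimated reads on genes, and each NaCl library 21015690 to 24144999.

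Values are normalized estimated counts, that is, RSEM's estimated reads per gene scaled between libraries by the authors. The list of 9 genes was drawn up with the difference between itaconate and NaCl already known. Their values, folds and log2 differences are therefore given as a description, with no p-value for any one of them. Their p-values from the fit enter only a count given beside the share of all tested genes. A log2 difference is the itaconate mean minus the NaCl mean of log2(value + 1), with its standard error (SE) from a limma fit over 13170 genes. In bulk RNA a lower value can come from fewer cells that express a gene or from less RNA per cell, and these cannot be told apart.

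The promoters of the genes with the largest differences are shown because GYS1, GBE1 and PYGL are described in human cell lines as genes induced under hypoxia, by factors that bind the core motif ACGTG or GCGTG. Ugp2, which barely differed, is shown beside them. Each sequence is the part of the 250 bases before the RefSeq start (GRCm38.p6) that holds no annotated exon, on the gene's own strand, 5′ to 3′, with the cores of either strand in capitals.
Gbe1, chr16:70313699-70313948, plus strand: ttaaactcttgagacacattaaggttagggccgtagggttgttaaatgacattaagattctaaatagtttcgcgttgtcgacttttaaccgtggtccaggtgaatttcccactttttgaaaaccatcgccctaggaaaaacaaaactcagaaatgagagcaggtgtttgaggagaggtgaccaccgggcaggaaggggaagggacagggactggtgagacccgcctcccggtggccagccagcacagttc
Gys1, chr7:45434624-45434838, plus strand: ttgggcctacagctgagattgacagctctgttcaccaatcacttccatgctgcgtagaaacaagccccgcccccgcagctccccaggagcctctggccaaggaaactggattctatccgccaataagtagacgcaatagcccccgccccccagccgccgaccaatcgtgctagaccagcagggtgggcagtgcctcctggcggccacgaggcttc
Pygl, chr12:70227684-70227840, minus strand: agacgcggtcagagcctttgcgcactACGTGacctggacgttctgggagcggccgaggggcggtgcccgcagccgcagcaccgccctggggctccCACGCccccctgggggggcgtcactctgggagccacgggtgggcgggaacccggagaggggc
Pygb, chr2:150786546-150786734, plus strand: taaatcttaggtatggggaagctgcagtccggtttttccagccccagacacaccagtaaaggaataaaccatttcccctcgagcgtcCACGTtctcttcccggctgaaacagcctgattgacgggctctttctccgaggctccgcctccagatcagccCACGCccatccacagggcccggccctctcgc
Epm2a, chr10:11343195-11343403, plus strand: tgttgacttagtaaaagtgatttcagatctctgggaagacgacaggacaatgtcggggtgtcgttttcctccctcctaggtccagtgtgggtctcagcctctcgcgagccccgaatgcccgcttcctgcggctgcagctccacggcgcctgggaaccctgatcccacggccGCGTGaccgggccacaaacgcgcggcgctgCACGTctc
Ugp2, chr11:21371268-21371459, minus strand: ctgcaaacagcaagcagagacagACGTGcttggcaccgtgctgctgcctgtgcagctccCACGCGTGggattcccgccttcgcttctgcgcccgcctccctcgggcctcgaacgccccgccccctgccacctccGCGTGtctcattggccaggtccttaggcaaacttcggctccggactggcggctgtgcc

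All 9 genes had a promoter in the RefSeq table, Ugp2 with 2 starts. Over the full 250 bases and both strands, the Gbe1 and Gys1 windows held 0 cores. The Pygl, Pygb and Epm2a windows held 2 each. Ugp2 held 6 at its outer start, of which 2 overlap in CACGCGTG, and 0 at its inner start, while Gyg, Stbd1 and Nhlrc1 held 1 each. Of the 250 bases of the Gyg window, 201 are annotated exon in GENCODE release M21, whose gene start differs from that of RefSeq. Of 32851 promoter windows of this length in the table, 38.6% held at least 1 core, and 16.7% held 2 or more. Both cores contain CG, and the windows of the 9 genes held from 48.8% (Gbe1) to 73.6% (Ugp2, inner start) of G and C. The shares over all windows were not matched for this content. No window of the 9 genes held the E-box CACGTG, which contains the ACGTG core and was found in 6.02% of all windows. These are matches of letters and not binding sites, and the windows say nothing of sites elsewhere. For Pygl, GENCODE release M21 places the gene's outermost start at position 70231488 of chromosome 12, upstream of the RefSeq window.

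With itaconate, the synthase gene Gys1 and the branching enzyme gene Gbe1 were 3.32-fold and 4.97-fold lower than with NaCl, whereas the glycogenin gene Gyg and the UDP-glucose gene Ugp2 had overlapping groups. Of the phosphorylases, the liver isoform gene Pygl was 3.20-fold lower and the brain isoform gene Pygb 2.06-fold higher. The laforin gene Epm2a was 16.6-fold lower. In the fit over all genes, 5 of the 9 passed an adjusted p under 0.05 (1 higher, 4 lower), against 36.0% of all tested genes. The groups did not overlap for 6 of the 9 (1 higher, 5 lower), against 48.4% of all tested genes (24.2% higher, 24.2% lower). A log2 difference of −1 or lower was seen for 4 of the 9, against 7.47% of all tested genes, and a difference of 1 or higher for 1 of the 9, against 5.80% of all tested genes. Since the list was made from this same contrast, nothing is read from these counts. The median log2 difference of the 9 genes was −0.87, beside −0.00095 over all tested genes.

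**Figure D1:**
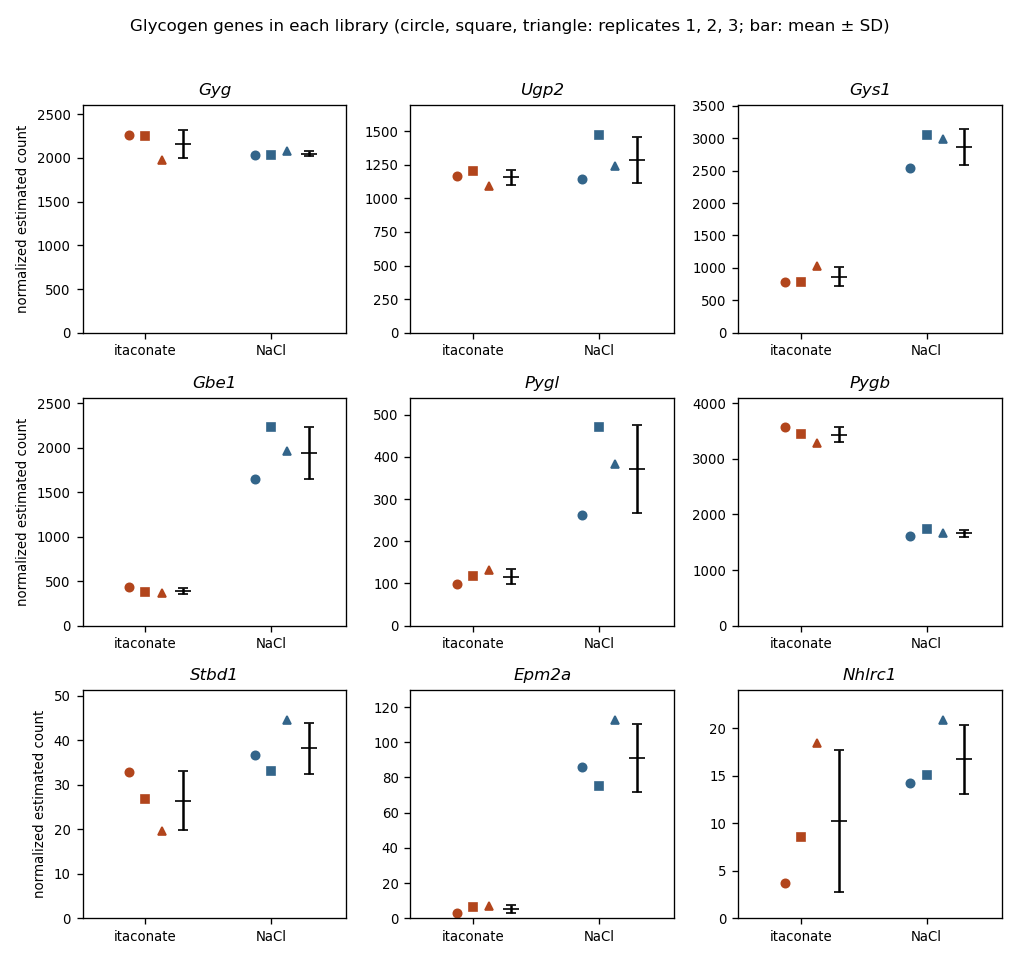
Normalized estimated count of each of the 9 genes in the itaconate libraries (left of each panel) and the NaCl libraries (right), with replicates as circle, square and triangle and the mean ± SD beside them; every axis starts at 0 and has its own scale. Gys1, Gbe1, Pygl and Epm2a lie far below the NaCl libraries, Pygb lies above them, and Gyg, Ugp2 and Nhlrc1 overlap.

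Gyg encodes glycogenin, which glucosylates itself to start a glycogen chain. It lies on chromosome 3 (20122084 to 20155317, GRCm38, minus strand). Its normalized estimated counts were 2267, 2245 and 1979 with itaconate, against 2031, 2037 and 2081 with NaCl. Itaconate replicates 1 and 2 were above and replicate 3 below all controls, so the groups overlapped. The log2 difference was 0.075 ± 0.090 SE.

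Ugp2 encodes UDP-glucose pyrophosphorylase, which makes the activated glucose that the synthase uses. It lies on chromosome 11 (21321138 to 21371201, minus strand). Its values were 1165, 1206 and 1096 with itaconate and 1143, 1476 and 1241 with NaCl. The groups overlapped, with NaCl replicate 2 the highest library. The means were 1156 ± 55.7 and 1287 ± 171 (SD, n = 3 each), and the log2 difference was −0.15 ± 0.11 SE.

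Gys1 encodes the glycogen synthase of muscle and most other tissues. It lies on chromosome 7 (45434844 to 45456619, plus strand), and the liver synthase gene Gys2 had a value of 0 in all 6 libraries. Gys1 values were 780.0, 781 and 1029 with itaconate, against 2539, 3056 and 2990.4 with NaCl. The groups were well apart, and itaconate replicate 3 was the nearest to the controls. The means were 863 ± 143 and 2862 ± 281 (SD, n = 3 each), a log2 difference of −1.74 ± 0.12 SE. Exons of Ruvbl2 on the opposite strand overlap 8.43% of the Gys1 exon bases, and reads there cannot be told apart, since no source used here states the strand setting of the counting. Ruvbl2 itself averaged 1555 with itaconate and 1949 with NaCl (log2 difference −0.34, limma adjusted p = 0.0357).

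Gbe1 encodes the branching enzyme; its loss in human glycogen storage disease gives poorly branched, insoluble polyglucosan. It lies on chromosome 16 (70313949 to 70569716, plus strand) and shares no 31-base sequence with the transcripts of any other gene in GENCODE M21. Its values were 429, 375 and 371 with itaconate, against 1644, 2230.1 and 1963 with NaCl. The highest itaconate library was far below the lowest NaCl library. The means were 392 ± 32.8 and 1946 ± 293 (SD, n = 3 each), a log2 difference of −2.30 ± 0.13 SE. Ranked from the lowest, that difference was number 161 among 13170 genes.

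Pygl and Pygb encode the liver and brain isoforms of glycogen phosphorylase, which releases glucose 1-phosphate from the chain ends. Pygl lies on chromosome 12 (70190811 to 70231488, minus strand). Its values were 98.2, 118 and 132 with itaconate, against 261, 470.1 and 384 with NaCl. The groups did not overlap, and the NaCl libraries differed among themselves, with a coefficient of variation of 28.3%, against 14.8% with itaconate. The Pygl means were 116 ± 17.2 and 372 ± 105 (SD, n = 3 each), a log2 difference of −1.64 ± 0.22 SE.

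Pygb lies on chromosome 2 (150786735 to 150831758, plus strand). Its values were 3570.0, 3450.2 and 3293 with itaconate, against 1604, 1732 and 1659 with NaCl. The itaconate libraries were all above the controls and close to each other, with a coefficient of variation of 4.05% in itaconate and 3.85% in NaCl libraries. The means were 3438 ± 139 and 1665 ± 64.0 (SD, n = 3 each), a log2 difference of 1.05 ± 0.085 SE. Pygb was the single member of the 9 that was higher with itaconate with no overlap. It shares 38 of its 31-base sequences (0.796%) with Pygm, the muscle isoform gene, and none with Pygl.

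Per kb of annotated exon, the values of the 3 phosphorylase genes can be set beside each other. Pygb made up 94.6%, 91.7% and 92.8% of their sum in the itaconate libraries, against 79.2%, 73.4% and 74.6% in the NaCl libraries. Pygl made up 3.04%, 3.67% and 4.36% with itaconate, against 15.1%, 23.3% and 20.2% with NaCl. Both shares kept the groups apart, while the share of Pygm overlapped. The summed phosphorylase value per kb was 945 ± 32.2 with itaconate and 564 ± 43.1 with NaCl (SD, n = 3 each). These proportions restate the member values and were not tested.

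The proportions between enzymes differed as well. Gbe1 per kb was 0.474, 0.414 and 0.310 of Gys1 per kb in itaconate replicates 1, 2 and 3, against 0.558, 0.628 and 0.565 in the NaCl libraries. The branching enzyme was thus the lower of the pair in every library, and lower still with itaconate. The summed phosphorylases were 4.55, 4.53 and 3.25 times Gys1 per kb with itaconate, and 0.750, 0.726 and 0.700 times with NaCl. Itaconate replicate 3 was the lowest of its group in both proportions. All of these are RNA values; glycogen and enzyme activity were not measured in the files.

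**Figure D2:**
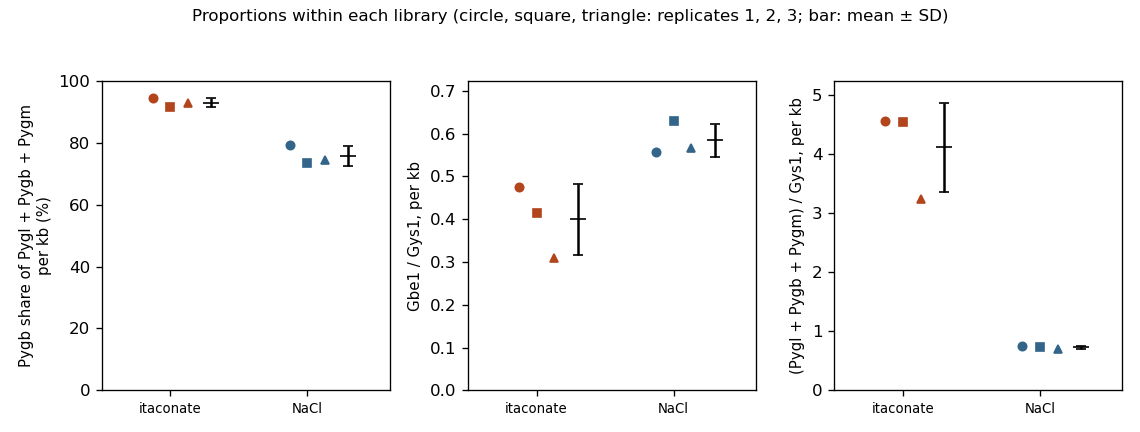
Proportions of normalized estimated counts per kb of exon within each library: the share of Pygb among the 3 phosphorylase genes in percent, Gbe1 over Gys1, and summed phosphorylases over Gys1, with itaconate left and NaCl right, replicates as circle, square and triangle, and mean ± SD. The Pygb share averages 93.0% with itaconate and 75.7% with NaCl, and the groups are apart in all 3 panels.

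Stbd1 encodes a starch-binding protein that tethers glycogen to membranes and to the autophagy protein GABARAPL1. It lies on chromosome 5 (92603041 to 92606579, plus strand). Its values were low: 32.7, 26.9 and 19.5 with itaconate, against 36.7, 33.2 and 44.5 with NaCl. The groups barely missed each other, with 35 estimated reads behind itaconate replicate 1 and 33 behind NaCl replicate 2. The log2 difference was −0.53 ± 0.38 SE and it was −0.70 without itaconate replicate 1 and −0.34 without itaconate replicate 3.

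Epm2a encodes laforin, a phosphatase of glycogen, and Nhlrc1 encodes malin, the ubiquitin ligase that partners it; loss of either causes Lafora disease in humans, with polyglucosan bodies. Epm2a lies on chromosome 10 (11343404 to 11459644, plus strand). Its values were 2.81, 6.44 and 7.18 with itaconate, against 85.7, 75.3 and 113 with NaCl. These come from 3, 6 and 7 estimated reads with itaconate, against 84, 75 and 124 with NaCl. All itaconate libraries were close to no reads, and the groups were far apart. Pooled over libraries and scaled, 16 reads with itaconate against 283 with NaCl gave a NaCl-to-itaconate ratio of 17.1, with an exact 95% interval of 10.3 to 30.3 that covers counting error only. The log2 difference was −3.89 ± 0.46 SE, and the added 1 in log2(value + 1) makes it smaller than the ratio. That difference was number 14 from the lowest among 13170 genes. Epm2a passed the filter of a mean of at least 10 only through the NaCl libraries (mean 91.2, against 5.48 with itaconate). Nothing is therefore read from its rank.

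Nhlrc1 lies on chromosome 13 (47012557 to 47014850, minus strand). Its values were 3.74, 8.59 and 18.5 with itaconate, against 14.3, 15.1 and 20.9 with NaCl. The groups overlapped, because itaconate replicate 3 was above NaCl replicates 1 and 2. The log2 difference was −0.87 ± 0.65 SE, and it was −0.36 without itaconate replicate 1 and −1.38 without itaconate replicate 3. With 30 pooled estimated reads with itaconate and 52 with NaCl, the depth says little of this gene.

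Set against each other per kb of exon, the members kept the same top and changed order below it. With itaconate the order of mean levels was Gyg (1126 ± 83.5 per kb), Pygb (879 ± 35.6), Ugp2 (403 ± 19.4), Gys1 (235 ± 39.0), Gbe1 (91.7 ± 7.67), Pygl (34.8 ± 5.14), Stbd1 (11.9 ± 2.99), Nhlrc1 (4.48 ± 3.27) and Epm2a (1.67 ± 0.713) (SD, n = 3). Nhlrc1 and Epm2a were the neighbours in it whose libraries overlapped. With NaCl the order was Gyg (1067 ± 14.2 per kb), Gys1 (778 ± 76.5), Gbe1 (456 ± 68.7), Ugp2 (448 ± 59.5), Pygb (426 ± 16.4), Pygl (111 ± 31.4), Epm2a (27.7 ± 5.84), Stbd1 (17.2 ± 2.61) and Nhlrc1 (7.30 ± 1.57) (SD, n = 3). Gbe1 overlapped with Ugp2, and Ugp2 with Pygb. Levels per kb use the union of exons in the GENCODE basic set, which need not be the transcript lengths in these cells.

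**Figure D3:**
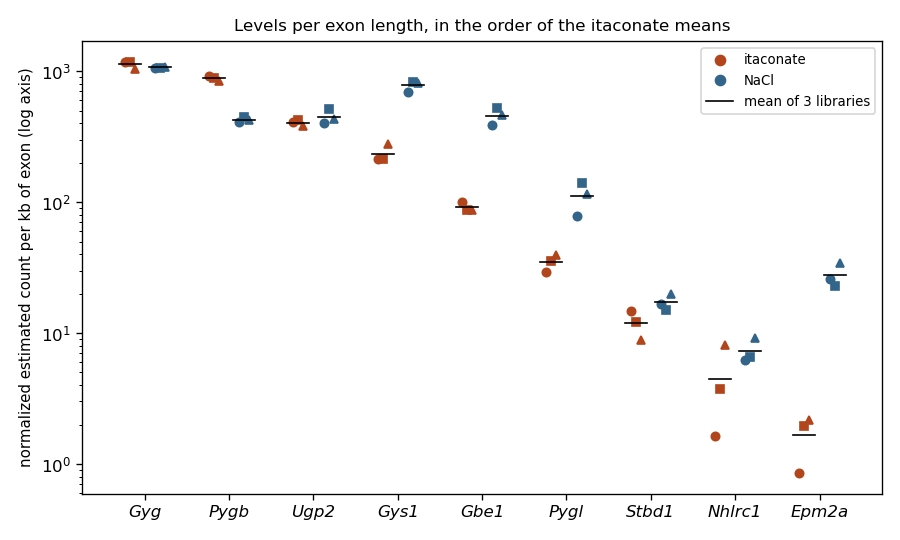
Normalized estimated count per kb of exon (log axis) of the 9 genes in each itaconate library (left of each pair) and NaCl library (right), with a line at the mean of 3 libraries. Pygb stands second after Gyg with itaconate at 879, where Gys1 stands second with NaCl at 778, and Epm2a falls to the lowest place with itaconate.

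The rest of the pathway was read from a list of 37 other genes by textbook role, of which 27 were measured at a mean of at least 10, and these were tested in the limma fit. Of the 27, 8 fell and 6 rose at a Benjamini-Hochberg adjusted p under 0.05, or 51.9% called, and 13 missed the threshold. Over all 13170 tested genes 36.0% were called, 17.8% lower and 18.2% higher. The median log2 difference of the 27 genes was −0.13. Without NaCl replicate 3, 9 of the genes were called (3 higher, 6 lower), and without itaconate replicate 2, 9 (4 higher, 5 lower). Without NaCl replicate 2, 11 were called (6 higher, 5 lower). Over all genes, the same 3 omissions in that order gave 3781, 3478 and 3783 calls, against 4740 with all libraries. The earlier results of these data were known when the list was written.

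Of the phosphoglucomutase family, which links glucose 6-phosphate and glucose 1-phosphate on the way into and out of glycogen, Pgm1 fell. Its values were 1388, 1542 and 2025 with itaconate, against 4845, 6022 and 5703 with NaCl (log2 difference −1.75 ± 0.13 SE, limma adjusted p = 2.34e-06). All 3 itaconate libraries were below all controls, with replicate 3 the nearest to them, as for Gys1. Pgm2l1, which makes glucose 1,6-bisphosphate, the cofactor of phosphoglucomutase, rose to 538 ± 24.0 with itaconate, against 253 ± 66.6 with NaCl (SD, n = 3; log2 difference 1.13 ± 0.19 SE, adjusted p = 6.08e-04). Pgm1 made up 68.4% ± 4.20 of the family's values per kb with itaconate and 88.5% ± 1.80 with NaCl (SD, n = 3). The RefSeq table gives Pgm1 and Pgm2 each as an older name of the other, and the symbol is used here as the authors' table has it. The exon lengths behind the shares are those of GENCODE M21 under the same symbols. Both the shares and the enzyme meant by Pgm1 depend on that reading.

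Among the breakdown genes beside the members, Pygm and the lysosomal glucosidase gene Gaa missed the threshold, at 0.19 ± 0.30 SE and 0.21 ± 0.11 SE.

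Phosphorylase kinase switches phosphorylase on. Of its 3 measured subunit genes, 2 passed the test as higher, against 18.2% of all tested genes, and Phkb missed the threshold at −0.28 ± 0.16 SE. Phka2, the alpha subunit gene of the liver form, rose to 586 ± 64.0, against 400.0 ± 2.42 with NaCl (SD, n = 3; log2 difference 0.54 ± 0.13 SE, limma adjusted p = 0.00533). Phkg2, a catalytic subunit gene, rose by 0.32 ± 0.098 SE (adjusted p = 0.0210), a call lost without NaCl replicate 3 (0.0680) or itaconate replicate 2 (0.101). Exons of Ccdc189 on the opposite strand overlap 40.3% of the Phkg2 exon bases, and Ccdc189 averaged 16.9 with itaconate and 16.6 with NaCl.

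Protein phosphatase 1 turns the synthase on when a targeting subunit brings it to glycogen. Ppp1r3b, the targeting subunit known from liver, fell. Its values were 890.4, 944 and 1141 with itaconate, against 1751, 2444 and 1984 with NaCl (log2 difference −1.05 ± 0.13 SE, limma adjusted p = 8.75e-05). All itaconate libraries were below all controls. The targeting subunit gene Ppp1r3e fell by 0.92 ± 0.27 SE on the log2 scale (adjusted p = 0.0176). That call was lost without NaCl replicate 1 (0.0519), NaCl replicate 2 (0.0534), itaconate replicate 1 (0.0548) or itaconate replicate 2 (0.0671). Ppp1r3f, a further targeting subunit gene, rose by 1.05 ± 0.25 SE (adjusted p = 0.00574), and 50.7% of its exon bases overlap Gm36995 on the same strand. Gm36995 averaged 44.7 with itaconate (93.5 in replicate 1) and 39.2 with NaCl (log2 difference −0.19, adjusted p = 0.815). The 3 catalytic subunit genes missed the threshold.

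Among kinases of the synthase, Gsk3b, whose product phosphorylates and inhibits it, fell to 2241 ± 166 with itaconate, against 3019 ± 124 with NaCl (SD, n = 3; log2 difference −0.43 ± 0.089 SE, limma adjusted p = 0.00251). Its paralog Gsk3a missed the threshold at 0.12 ± 0.088 SE. Prkag2, a regulatory subunit gene of AMPK whose mutation in humans gives glycogen storage in the heart, rose by 0.54 ± 0.15 SE (adjusted p = 0.0122), and without NaCl replicate 3 the adjusted p was 0.0580. The other 4 measured AMPK subunit genes missed the threshold.

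Among quality control and glycophagy genes, Epm2aip1, which encodes a laforin-binding protein, rose by 0.42 ± 0.15 SE (limma adjusted p = 0.0448), and its groups overlapped. That call was lost without NaCl replicate 1 (0.177), NaCl replicate 3 (0.0694), itaconate replicate 2 (0.172) or itaconate replicate 3 (0.101). Gabarapl1, the autophagy partner of Stbd1, fell by 0.32 ± 0.10 SE (adjusted p = 0.0258), lost without NaCl replicates 1 (0.0669), 2 (0.0581) or 3 (0.0679) or itaconate replicates 2 (0.0714) or 3 (0.0782). Of the genes of glucose 6-phosphate release, 2 were measured and both passed the test as lower, against 17.8% of all tested genes. Slc37a4, the glucose 6-phosphate transporter of the endoplasmic reticulum, had 636, 782 and 997 with itaconate, against 1806, 1991 and 2074 with NaCl (log2 difference −1.30 ± 0.14 SE, adjusted p = 3.05e-05). G6pc3, the widely expressed phosphatase that acts on it there, fell by 0.35 ± 0.11 SE (adjusted p = 0.0261), lost without NaCl replicate 2 (0.0583), NaCl replicate 3 (0.0995) or itaconate replicate 2 (0.116).

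**Figure D4:**
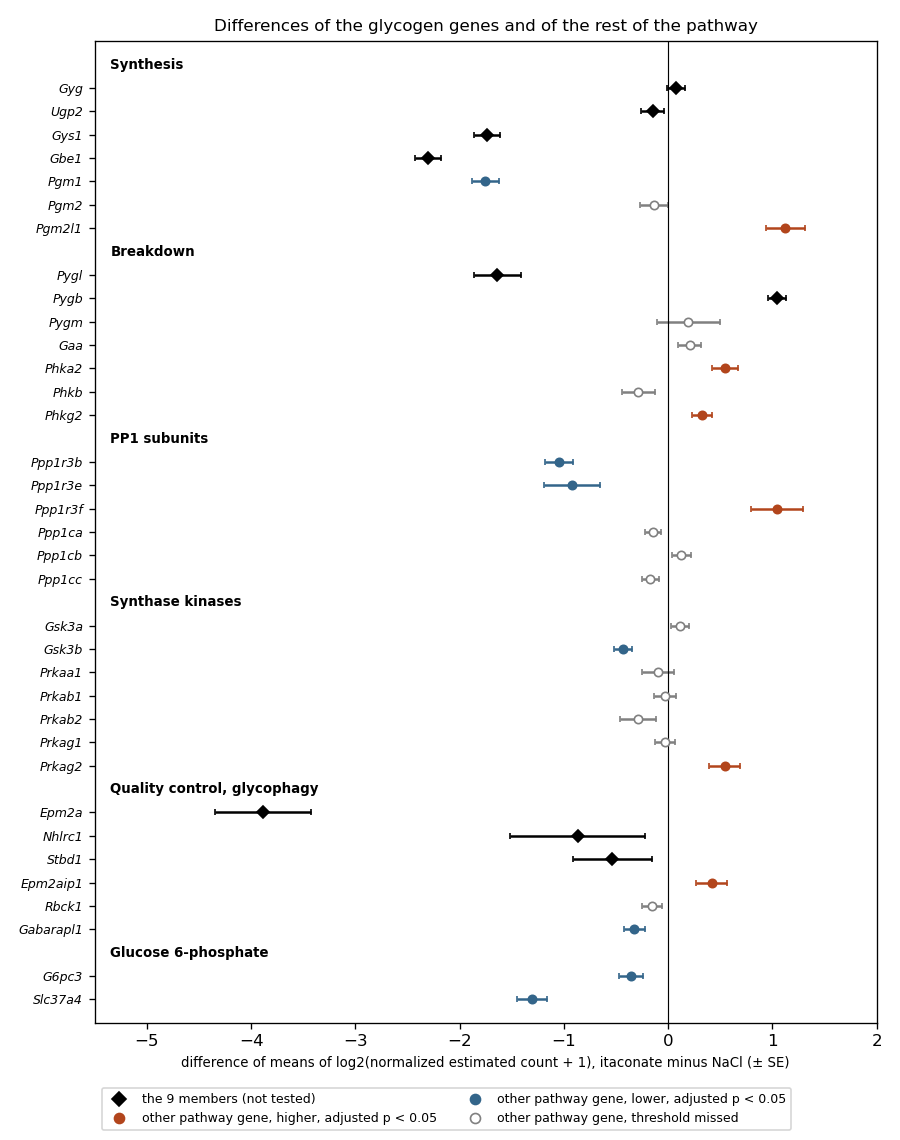
Difference of the group means of log2(normalized estimated count + 1), itaconate minus NaCl, with SE, grouped by role. The 9 members are diamonds, for which no test is shown ("not tested" in the legend). Other measured pathway genes are circles, filled where the adjusted p was under 0.05. Epm2a, Gbe1, Pgm1, Gys1 and Pygl have the lowest values, and Pgm2l1, Ppp1r3f and Pygb the highest.

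Of the 37 genes, 4 were at 0 in every library: Gys2, Ppp1r3a, Prkag3 and the glucose 6-phosphatase gene G6pc, named after their values were seen. Among the 6 members whose groups did not overlap, itaconate replicate 3 was nearest to the NaCl mean for 4 (Gys1, Pygl, Pygb and Epm2a), replicate 1 for Gbe1 and Stbd1, and replicate 2 for none. The log2 difference without itaconate replicate 3 was −1.87 for Gys1 and −1.74 with all libraries.

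The cells carried T cell markers: the summed values of 6 marker genes were 45653 to 47230.4 with itaconate and 37589 to 42986 with NaCl, with Cd3e, Cd4 and Lck higher and Cd3g lower with itaconate at a limma adjusted p under 0.05. The summed macrophage and monocyte markers were 151 to 198 with itaconate and 56.1 to 90.5 with NaCl. Of these 5 genes, 2 reached the filter and were tested, Itgam and Cd68. Both passed the limma test as higher (log2 differences 2.10 and 0.92, adjusted p = 0.00521 and 0.0318), against 18.2% of all tested genes. Csf1r, Lyz2 and Adgre1 were below the filter and were not tested. With itaconate they were at most 6.53, 1.07 and 9.67, in that order, and with NaCl at most 2.48, 2.04 and 2.04. The neutrophil markers S100a8, S100a9 and Elane were at 0 in all libraries. The summed neutrophil list was 15.9 to 30.8 with itaconate and 34.2 to 64.4 with NaCl, nearly all of it Ly6g. Ly6g was lower in every itaconate library than in any NaCl library and missed the threshold in the limma test (log2 difference −1.07, adjusted p = 0.0598). B cell markers summed to 173 to 303 with itaconate and 224 to 304 with NaCl, and CD8 markers to 308 to 365 with itaconate and 363 to 408 with NaCl. The NK cell markers summed to 215 to 246 with itaconate and 109 to 139 with NaCl, nearly all of it Eomes. Eomes passed the same test as higher (log2 difference 0.95, adjusted p = 0.00240). Of the others, Ncr1 was at most 2.04 and Klrb1c at most 2.05 in any library. Klrk1 missed the threshold in that test (log2 difference 0.16, adjusted p = 0.848). Erythroid markers were at most 3.01 in any library. Any part of other cell types in the values of the glycogen genes was not tested.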

How the data were processed

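The authors deposited normalized estimated counts per gene symbol, a signal with no value below 0. The submitters' processing notes name STAR 2.7.0f, RSEM 1.3.0 and mm10; no source used here states the annotation, the tool behind the size factors, or the strand setting. The most frequent low value was taken as 1 read, which gave each library's estimated total. From 80.0% to 82.2% of a library's values came out whole to within 0.02 reads, and 100% of its low values in hundredths of a read. No count model was run, because the values are normalized estimated counts. The table has 55401 entries, and for 107 symbols with several entries the one with the highest mean was kept. Values were fitted as log2(value + 1) with limma 3.58.1 in R 4.3.3 (two-sided, intensity trend, no covariate). P-values were adjusted by Benjamini and Hochberg over the 13170 genes whose mean was at least 10. The fit code was also run on simulated counts with a small share of genes changed, which checks the code and not the calls made here. Replicates correlated across genes (not independent points) at r = 0.973 to 0.979, and their counts differed by a chi-square per degree of freedom of 13.1 to 26.2, so none repeats another. With 3 libraries per group, their number limits the precision. Values are relative within a library, not amounts per cell. Positions and exon lengths are from GENCODE M21 (GRCm38, the build of mm10), promoters from RefSeq. The members, the pathway list and the marker lists were chosen with earlier results of these data known. The text names every member, every pathway gene past the threshold but 1, and any tested one that missed it with a log2 difference of at least 0.5 in size (none did); other names were chosen after their values were seen. That gene enters the counts and is not reported here. Alternatives were pseudocounts of 0.1 and 10, no filter, a mean minimum of 100, trimmed-mean (TMM) and quantile scaling, the replicate number as a block, and each library left out in turn.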

Additional observations from a re-analysis of the deposited data

How the results depend on the processing

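Each of the 9 members kept the sign of its log2 difference under all alternatives in which it was measured. The log2 difference of Epm2a ran from −4.12 to −2.70 (the second with a pseudocount of 10), and all other members stayed within the spread of their libraries. Leaving out single libraries gave 9 to 13 called pathway genes outside the members, against 14 (3 to 6 higher, against 6, and 5 to 7 lower, against 8). The same omissions gave 3478 to 5000 called genes in all (1730 to 2460 higher, 1748 to 2540 lower), against 4740; these fits use fewer libraries. Pgm1, Pgm2l1, Phka2, Ppp1r3b, Ppp1r3f, Gsk3b and Slc37a4 stayed past the threshold under every alternative. The call of Epm2aip1 was also lost with no filter (adjusted p = 0.0642) and with quantile scaling (0.0668). The labels tie no replicate number to a mouse or day. Same-numbered libraries deviated together only weakly (r = 0.15, 0.038 and 0.13 across genes), and each correlated best with its own number, a hint from the data and not the design. With the replicate number as a block, 15 pathway genes and 5634 genes in all were called. The differences of Epm2a, Nhlrc1 and Stbd1 rest on at most 124 estimated reads in a library, which limits their precision. The filter at a mean of 100 left these 3 genes, Ppp1r3e and Pygm without a value.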
